A study of Homo sapiens with 6 samples.

Results

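Integrin, laminin and collagen genes were followed in OE-19 cells, a line of adenocarcinoma of the esophagogastric junction (AEG), after knockdown of *IGF2BP3* (IGF2BP3 KD). IGF2BP3 is an RNA-binding protein that reads m6A-modified transcripts. The members are coding genes picked by symbol. Their symbols name an integrin (ITGA or ITGB), a laminin chain (LAMA, LAMB or LAMC) or a collagen chain (COL with an A-numbered chain). No measured value enters this rule, but the families were chosen with earlier results of these data known. The rule gave 82 of the 60480 gene identifiers in the count table, namely 26 integrin, 12 laminin and 44 collagen genes. Poly(A) RNA was sequenced from 3 libraries of control cells and 3 libraries of cells with an shRNA against *IGF2BP3* (shIGF2BP3). All cells were grown in RPMI1640 medium with 10% fetal bovine serum. The control libraries are titled shControl and described as Puro, and these labels do not settle what the control cells carry. All libraries come from this single cancer line, and which hairpin each IGF2BP3 KD library carries is not given in the sources used here. The labels do not say whether the 3 libraries of a group are separate cultures, so the p-values measure the spread between these libraries, which may be technical.

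Integrins are receptors of 1 alpha and 1 beta subunit that hold cells on the matrix. Laminins are trimers of an alpha, a beta and a gamma chain and form the main network of basement membranes, while collagens are triple helices that form fibrils, networks or cell-surface proteins. In epithelia, laminin-332, whose chains include the products of *LAMA3* and *LAMB3*, is bound by integrins α6β4 and α3β1, and laminin-511 (*LAMA5*, *LAMB1* and *LAMC1*) is the other widespread epithelial laminin. Integrin α6β4 and collagen XVII are built into hemidesmosomes, which fix the cell to its basement membrane.

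Values are CPM, that is, counts scaled to a common library size with edgeR's TMM factors. Levels of different genes are ranked as CPM per kilobase of annotated exon. This length joins the exons of all annotated transcripts of a gene, for example 14561 bases for *ITGB1* and 6761 for *ITGB4*. It can exceed the length of the transcripts present, so comparisons of level between genes depend on the annotation. Family sums, shares of those sums and read ratios within a library are not scaled for exon length. A gene is called when the p-value of edgeR's quasi-likelihood test, adjusted by Benjamini-Hochberg over all 19778 genes tested, is under 0.05. Total counts were 58966114 to 69989087 in control and 53424071 to 63008137 in IGF2BP3 KD libraries, and the members together took 0.427% to 0.442% of them. *IGF2BP3* itself, on chromosome 7, was at 108, 106 and 112 CPM in control and at 14.4, 12.8 and 12.6 CPM in IGF2BP3 KD libraries, so each library matched its label. All 9 epithelial markers examined were detected, and summed to 19330 to 20310 CPM in control and 21210 to 21700 CPM in IGF2BP3 KD libraries. Most of this was *ERBB2* (means of 13070 and 14340 CPM). Of the 9, 2 were called lower and 4 higher, where 10.6% of all tested genes were lower and 9.87% higher. The 8 fibroblast markers together reached 0.962 to 1.18 CPM in control and 0.693 to 1.90 CPM in IGF2BP3 KD libraries, with *LUM* and *POSTN* at 0 counts, and the 5 endothelial markers reached 0 to 0.581 and 0.177 to 0.371 CPM. The 6 leukocyte markers summed to 33.8 to 39.0 CPM in control and 49.7 to 55.5 CPM in IGF2BP3 KD, nearly all of it from *CD68*, a lysosomal gene, and without it they summed to 0.818 to 1.43 and 1.06 to 1.43 CPM.

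Of the 82 members, 48 had enough counts to be tested and 14 of these were called, 5 lower and 9 higher in IGF2BP3 KD. This is 29.2% of those tested, where 20.4% of all tested genes were called (10.6% lower and 9.87% higher). Of the 37 members whose mean reached 1 CPM, 37.8% were called, against 27.7% of all genes at that level (14.4% lower and 13.4% higher). The 3 values of each group did not overlap for 22 members (12 lower, 10 higher), against 35.8% of all tested genes. Tested members had a median log2 fold change of 0.0063, beside 0.0098 over all tested genes. In these bulk libraries, fewer cells that express a gene and less of its RNA per cell cannot be told apart.

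By family, 3 laminin chains were lower (*LAMC1*, *LAMA5*, *LAMB1*) among 10 tested. Among 18 integrin subunits tested, *ITGB6* was lower, and *ITGB4*, *ITGA6*, *ITGA3* and *ITGB7* were higher. Among 20 collagen chains tested, *COL27A1* was lower, and *COL5A3*, *COL17A1*, *COL6A1* and *COL1A1* were higher. Called changes ran from -0.48 for *ITGB6* to 1.59 for *COL5A3* on the log2 scale, and 6 of the 14 were under 0.2 in size.

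**Figure D1:**
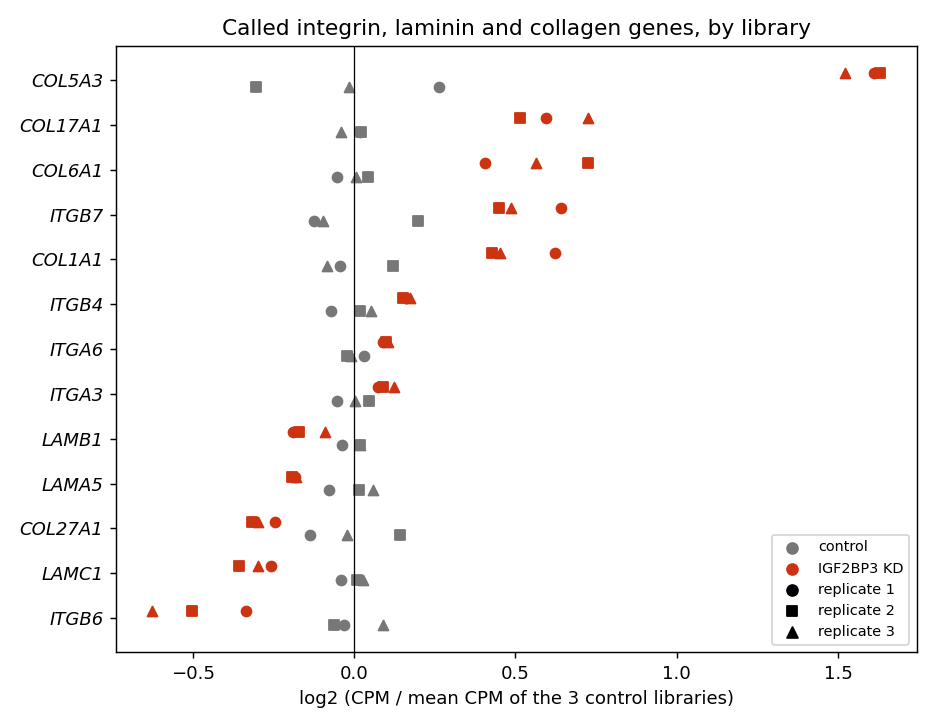
Level of the called members that are described by name, in each library, as log2 of its CPM over the mean CPM of the 3 control libraries (x axis). Grey points are control and red points IGF2BP3 KD libraries, and the marker shape gives the replicate. The red and grey points of each gene do not overlap, and *COL5A3* lies farthest from its controls.

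The laminin chains of the epithelial trimers were the first comparison, since their genes were among the most abundant members. *LAMC1*, the gamma chain of most laminins (chr1:183023420-183145592, plus strand, hg38), was at 368, 382 and 386 CPM in control and at 317, 296 and 309 CPM in IGF2BP3 KD libraries. All IGF2BP3 KD values lay below all control values, with a log2 fold change of -0.30 (SE 0.03, adjusted p = 6e-05).

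*LAMA5*, the alpha chain of laminin-511 (chr20:62307955-62367312, minus strand), was at 524, 558 and 575 CPM in control and at 487, 484 and 488 CPM in IGF2BP3 KD libraries. The groups did not overlap, the IGF2BP3 KD libraries varied by an SD of 1.98 CPM, and the log2 fold change was -0.18 (SE 0.03, adjusted p = 0.0020). Its exons share 244 bases with *ADRM1* on the opposite strand, a proteasome gene that was lower as well (log2 fold change -0.24).

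*LAMB1*, the beta chain of the same trimer (chr7:107923799-108003213, minus strand), was at 183, 190 and 190 CPM in control and at 164, 167 and 176 CPM in IGF2BP3 KD libraries. The highest IGF2BP3 KD value was under the lowest control value, with a log2 fold change of -0.15 (SE 0.04, adjusted p = 0.012). Without IGF2BP3 KD replicate 2 the adjusted p was 0.058. *LAMB1* shares 300 exon bases with *DLD* on the opposite strand, which was not called (221 CPM in control, 224 CPM in IGF2BP3 KD).

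The laminin-332 chains *LAMB3* and *LAMA3* were not called. *LAMB3*, with the highest level per kilobase of all laminin chains, was at 214, 238 and 248 CPM in control and at 219, 222 and 223 CPM in IGF2BP3 KD libraries. These groups overlapped (log2 fold change -0.076, SE 0.046, adjusted p = 0.31), and without control replicate 1, the lowest of the controls, the log2 fold change was -0.14 with an adjusted p of 0.0066. *LAMA3* was at 124, 119 and 122 CPM in control and at 117, 113 and 115 CPM in IGF2BP3 KD libraries, apart but not called (log2 fold change -0.078, SE 0.034, adjusted p = 0.15). *LAMB2*, the beta chain of laminin-521, was at 55.3, 57.0 and 60.5 CPM in control and at 53.5, 49.9 and 51.5 CPM in IGF2BP3 KD libraries, also apart and not called by edgeR (log2 fold change -0.16, SE 0.05, adjusted p = 0.056), whereas DESeq2, the stricter count filter and the fit without control replicate 1 called it lower.

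Within each library, the log2 ratios of *LAMA3* to *LAMA5* reads and of *LAMB3* to *LAMB1* reads compare laminin-332 with laminin-511 chains. Both overlapped between the groups (IGF2BP3 KD minus control 0.11 and 0.077, two-sided exact permutation test, p = 0.3 and 0.2, where 0.1 is the smallest that 3 against 3 libraries allow).

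The low laminin chains were not called. *LAMA2*, the alpha chain of muscle laminin, had means of 5.99 CPM in control and 6.27 CPM in IGF2BP3 KD cells, and *LAMA1*, an embryonic alpha chain, 2.68 and 3.05 CPM. *LAMB4* had means of 1.08 and 0.638 CPM, while *LAMA4* and *LAMC3* had at most 12 counts in any library and were not tested.

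**Figure D2:**
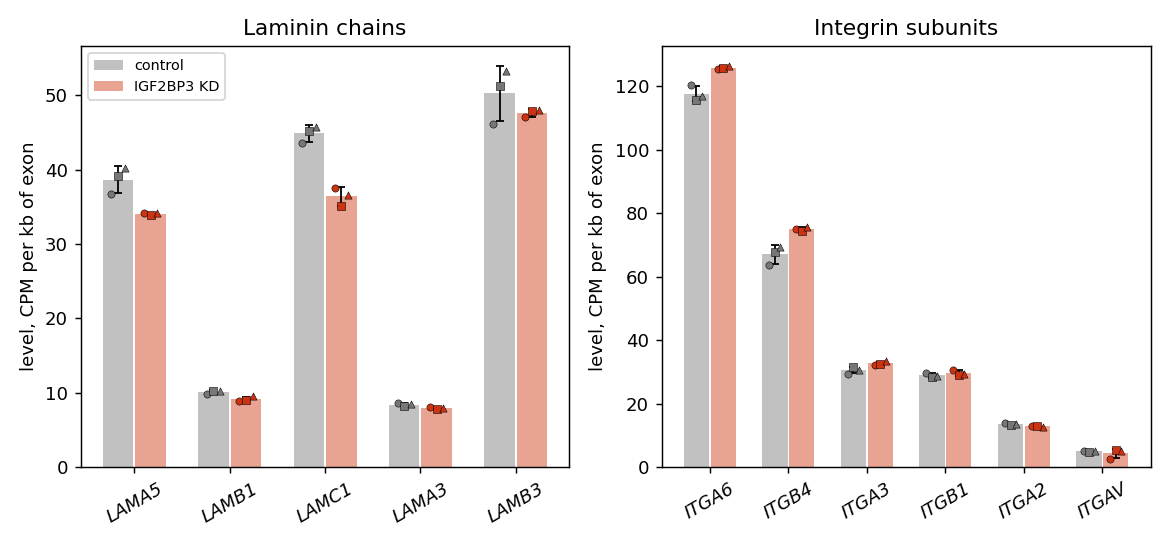
Levels of laminin chains (left) and of 6 integrin subunits (right), in CPM per kilobase of exon (y axis from 0). Bars are means of 3 control (grey) and 3 IGF2BP3 KD (red) libraries, error bars are SD, and points are single libraries. *LAMC1* and *LAMA5* fell, *ITGA6* had the highest level of all members, and IGF2BP3 KD replicate 1 stood apart for *ITGAV*.

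The integrin subunits that bind laminin were next. *ITGA6*, the α6 subunit (chr2:172427354-172506459, plus strand), had the highest level of all members, at 122 CPM per kb over the 6 libraries. It was at 803, 773 and 780 CPM in control and at 837, 840 and 844 CPM in IGF2BP3 KD libraries. The groups did not overlap and the rise was small, with a log2 fold change of 0.098 (SE 0.02, adjusted p = 0.0096). This call was lost without control replicate 3 (adjusted p = 0.058) and without the low-count filter (adjusted p = 0.069).

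*ITGB4*, the β4 subunit that pairs only with α6 (chr17:75721328-75757818, plus strand), was at 431, 458 and 469 CPM in control and at 506, 503 and 510 CPM in IGF2BP3 KD libraries. Every IGF2BP3 KD value was above every control value, with a log2 fold change of 0.16 (SE 0.03, adjusted p = 0.0037). *ITGA3*, the α3 subunit (chr17:50055968-50090481, plus strand), was at 289, 309 and 300 CPM in control and at 316, 319 and 326 CPM in IGF2BP3 KD libraries. Its groups were apart as well, but at a log2 fold change of 0.096 (SE 0.03) its adjusted p of 0.049 was close to the threshold. Leaving out 1 library removed that call in 5 of 6 cases, and the adjusted p then ranged from 0.037 to 0.18. *ITGA7*, the third laminin-binding alpha subunit measured, was not called (2.49 CPM in control, 2.47 CPM in IGF2BP3 KD).

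*ITGB1*, the common partner of α3 and of most other alpha subunits, was at 433, 412 and 418 CPM in control and at 446, 421 and 425 CPM in IGF2BP3 KD libraries. These values overlapped, with a log2 fold change of 0.033 (SE 0.03, adjusted p = 0.52). Within libraries, the log2 ratio of *ITGB4* to *ITGB1* reads was -0.0070, 0.15 and 0.17 in control and 0.18, 0.26 and 0.26 in IGF2BP3 KD libraries. This ratio was higher by 0.13 without overlap, though its lowest IGF2BP3 KD value lay only just above its highest control value (exact permutation test, two-sided, p = 0.1). The ratio of *ITGA6* to *ITGA3* differed by 0.0011 and overlapped.

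Collagen-binding alpha subunits were not called. *ITGA2*, the α2 subunit and the most abundant of them, was at 109, 104 and 107 CPM in control and at 103, 103 and 99.7 CPM in IGF2BP3 KD libraries. These values were apart by a narrow margin (log2 fold change -0.066, SE 0.036, adjusted p = 0.26). *ITGA1* and *ITGA10* had means of 2.24 and 2.05 CPM in control and 2.60 and 1.62 CPM in IGF2BP3 KD cells, and *ITGA11* had at most 3 counts.

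*ITGB6*, the β6 subunit, which pairs with αv and is known for activating latent TGF-β in epithelia, was the called member with the largest fall (chr2:160099667-160200313, minus strand). It was at 32.6, 31.9 and 35.5 CPM in control and at 26.5, 23.6 and 21.6 CPM in IGF2BP3 KD libraries. The groups were well separated, with a log2 fold change of -0.48 (SE 0.08, adjusted p = 0.0013), and the call held in all 12 alternative fits. Its exons share 966 bases with an lncRNA on the same strand that was not among the genes tested. Reads that fall on both can be lost or shared depending on the counting.

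Its partner *ITGAV*, the αv subunit, was at 99.6, 92.1 and 99.4 CPM in control and at 50.4, 102 and 94.5 CPM in IGF2BP3 KD libraries. IGF2BP3 KD replicate 1 stood apart from the rest, and the gene was not called (log2 fold change -0.23, SE 0.19, adjusted p = 0.47). Without that library the log2 fold change was 0.016. In replicate 1 *ITGAV* was 0.96 below the other IGF2BP3 KD libraries on the log2 scale, a distance that 4 of the 4579 genes averaging 50 CPM or more reached on that side, *ITGAV* included. The fall of *ITGB6* did not rest on this library, since replicate 1 held the highest of its IGF2BP3 KD values.

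*ITGB7*, the β7 subunit, best known from lymphocytes (chr12:53191323-53207282, minus strand), was at 10.1, 12.7 and 10.3 CPM in control and at 17.2, 15.1 and 15.4 CPM in IGF2BP3 KD libraries. The groups did not overlap and the log2 fold change was 0.53 (SE 0.10, adjusted p = 0.0040). Of its 4451 exon bases, 1881 are shared with *ZNF740* on the opposite strand, which was lower (42.6 CPM in control, 33.3 CPM in IGF2BP3 KD). The strand setting of the counting is not stated, so this value is uncertain. The known α partners of β7 were low, with *ITGAE* at 6.83 CPM in control and 6.50 CPM in IGF2BP3 KD (not called) and *ITGA4* at 0 counts in all 6 libraries, which allows up to 0.0431 to 0.0556 CPM at 3 counts per library, for counting error only.

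*ITGB5*, the β5 subunit, was at 131, 136 and 134 CPM in control and at 136, 129 and 143 CPM in IGF2BP3 KD libraries, which overlapped (log2 fold change 0.021, SE 0.041, adjusted p = 0.80). *ITGB8*, another αv partner, was at 1.12, 1.71 and 1.64 CPM in control and at 0.926, 0.757 and 1.03 CPM in IGF2BP3 KD libraries. The values of *ITGB8* were apart but few, and it was not called (log2 fold change -0.72, SE 0.27, adjusted p = 0.092). *ITGA5*, the fibronectin receptor subunit, had means of 10.4 and 11.5 CPM and was not called. The largest log2 fold change of all members, 1.71 (SE 0.65, adjusted p = 0.092), belonged to *ITGA9*, which had 5, 5 and 6 counts in control and 13, 19 and 17 counts in IGF2BP3 KD libraries and was not called.

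Called collagens were a transmembrane chain, 3 fibrillar chains and a beaded-filament chain. *COL17A1*, the transmembrane collagen of hemidesmosomes (chr10:104031286-104085880, minus strand), was at 31.5, 31.5 and 30.2 CPM in control and at 47.0, 44.3 and 51.4 CPM in IGF2BP3 KD libraries. Every IGF2BP3 KD library was above every control library, 1.53-fold on average, with a log2 fold change of 0.61 (SE 0.06, adjusted p = 5.1e-05). *ITGA6* and *ITGB4*, which encode the hemidesmosome integrin, were higher as well. *LAMA3* and *LAMB3* of its ligand had log2 fold changes of -0.078 and -0.076 and were not called. In the hemidesmosome and tetraspanin list below, *DST* was lower (log2 fold change -0.14) and *PLEC* was not called (-0.046).

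*COL5A3*, a chain of the fibrillar collagen V (chr19:9959561-10010504, minus strand), had the largest called change of all members. It was at 2.23, 1.51 and 1.84 CPM in control and at 5.69, 5.77 and 5.35 CPM in IGF2BP3 KD libraries. The groups were far apart, 3.01-fold on average, with a log2 fold change of 1.59 (SE 0.18, adjusted p = 0.00010), although its level stayed low, at 0.275 CPM per kb in control and 0.826 in IGF2BP3 KD. The collagen V chain *COL5A2* was not called, at 2.83, 2.56 and 2.48 CPM in control and 1.93, 2.05 and 1.97 CPM in IGF2BP3 KD libraries (log2 fold change -0.40, SE 0.18, adjusted p = 0.16). *COL5A1* had 7, 0 and 9 counts in control and 18, 0 and 21 counts in IGF2BP3 KD libraries, too few to be tested.

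*COL1A1*, the α1 chain of collagen I (chr17:50184101-50201632, minus strand), was at 21.1, 23.6 and 20.5 CPM in control and at 33.5, 29.2 and 29.8 CPM in IGF2BP3 KD libraries. The groups did not overlap, with a log2 fold change of 0.50 (SE 0.08, adjusted p = 0.00078). *COL1A2*, which encodes its usual partner chain, had 0 counts in all 6 libraries, and *COL3A1*, which accompanies collagen I in fibroblasts, had at most 11 counts.

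*COL6A1*, the α1 chain of the beaded-filament collagen VI (chr21:45981770-46005050, plus strand), was at 26.9, 28.7 and 28.0 CPM in control and at 37.0, 46.0 and 41.2 CPM in IGF2BP3 KD libraries. The groups were apart, with a log2 fold change of 0.57 (SE 0.08, adjusted p = 0.00035). *COL6A2* and *COL6A3*, whose chains join it in the trimer, had at most 12 and 8 counts in any library and were not tested. *COL1A1*, *COL6A1* and *COL5A3* were therefore each read without an appreciable level of at least 1 usual partner chain, while the fibroblast markers stayed at the low sums given above.

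*COL27A1*, another fibrillar collagen (chr9:114155537-114312511, plus strand), was the only called collagen chain that was lower, at 35.2, 42.7 and 38.1 CPM in control and 32.6, 31.1 and 31.5 CPM in IGF2BP3 KD libraries. The groups did not overlap, with a log2 fold change of -0.29 (SE 0.07, adjusted p = 0.016). Leaving out control replicate 2, IGF2BP3 KD replicate 2 or IGF2BP3 KD replicate 3 removed this call, with an adjusted p of up to 0.059.

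The remaining collagens of appreciable level were not called. *COL9A3*, a fibril-associated chain with the highest level per kilobase among collagens, was at 33.4, 38.3 and 39.4 CPM in control and at 32.4, 36.6 and 37.6 CPM in IGF2BP3 KD libraries, which overlapped (log2 fold change -0.059, SE 0.078, adjusted p = 0.68). *COL18A1*, a basement membrane collagen, had means of 42.5 and 45.3 CPM (log2 fold change 0.094, SE 0.059, adjusted p = 0.33). Of the basement membrane collagen IV chains, *COL4A2* had means of 13.0 and 14.7 CPM and *COL4A1* of 1.14 and 0.732 CPM, and neither was called. *COL7A1*, the anchoring fibril collagen, had means of 4.39 and 4.77 CPM and was not called.

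**Figure D3:**
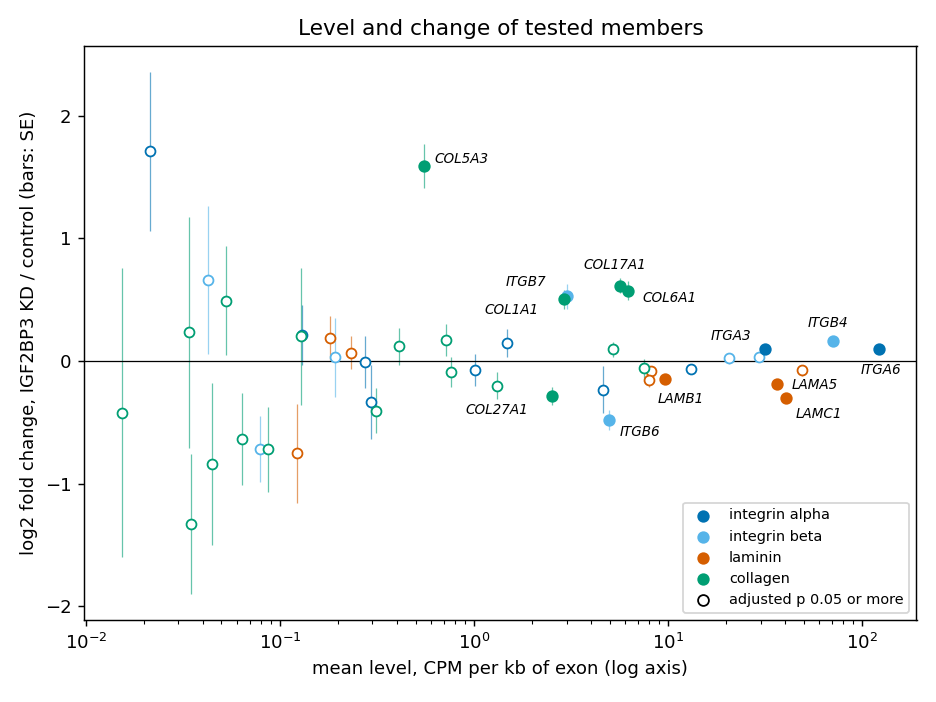
Mean level over the 6 libraries in CPM per kilobase of exon (x axis, log scale) against log2 fold change of IGF2BP3 KD over control (y axis, bars are SE) for tested members. Filled points have an adjusted p under 0.05 and carry their names, and colours give the family. Called laminin and integrin genes lie mostly at high levels with changes under 0.5, whereas the widest changes at low levels have wide errors.

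Many members had few or no counts. Of the 34 not tested, 24 were collagens, 8 integrin alpha subunits and 2 laminin chains, none with more than 25 counts in any library. Of the 82 members, 9 had 0 counts in all 6 libraries (*COL1A2*, *COL2A1*, *COL4A6*, *COL8A1*, *COL11A1*, *COL15A1*, *ITGA4*, *ITGA8* and *ITGAD*), and 12 had at most 3 counts in every library. All 8 beta subunits were tested. The 5 alpha subunits of leukocyte integrins (*ITGAL*, *ITGAM*, *ITGAX*, *ITGAD* and *ITGAE*) had at most 9 counts apart from *ITGAE*.

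Summed over its members, each family shifted by less than 0.21 on the log2 scale. The 12 laminin genes fell from 1773 ± 60.2 CPM (SD, n = 3) in control to 1619 ± 18.1 CPM in IGF2BP3 KD libraries, a log2 ratio of -0.13 (two-sided exact permutation test, p = 0.1). The 44 collagen genes went from 242 ± 7.92 to 279 ± 2.88 CPM (log2 ratio 0.21, same exact permutation test, p = 0.1). Integrin alpha genes went from 1312 ± 10.5 to 1370 ± 32.7 CPM (log2 ratio 0.061) and beta genes from 1055 ± 15.5 to 1116 ± 20.9 CPM (log2 ratio 0.081), each at the same p of 0.1, which is the smallest this exact test can give here. In each family the 3 values of a group did not overlap. The integrin sums depended on single genes: *ITGA6* made up 60.6% of the alpha sum and *ITGB4* 44.2% of the beta sum, and without them the log2 ratios were 0.0048 and 0.016. The alpha value also turned on IGF2BP3 KD replicate 1, the library apart for *ITGAV*, since without both *ITGA6* and that library it was 0.052, an alternative added after the data were seen.

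Genes that act with these families were counted by 6 hand-written lists, drawn up with earlier results of these data known. The lists together hold 155 genes, of which 128 were tested, 24 lower and 30 higher. The counts of each list are to be read against the shares called over all tested genes, 10.6% lower and 9.87% higher, or 14.4% and 13.4% among genes averaging 1 CPM or more. In the list of adhesion adaptors and kinases that join integrin tails to actin, 12 of 38 tested genes were lower and 4 higher, and the median was -0.090 on the log2 scale. *ACTN1* (α-actinin-1, an actin crosslinker) was at 204 CPM in control and 94.2 CPM in IGF2BP3 KD (log2 fold change -1.11, SE 0.03, adjusted p = 2.3e-09). *LIMS1* (PINCH1, partner of the integrin-linked kinase) fell from 57.7 to 36.1 CPM (log2 fold change -0.68) and *VCL* (vinculin, which ties talin to actin) from 132 to 83.0 CPM (log2 fold change -0.67). The median over all tested genes was 0.0098.

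Enzymes and carriers of collagen processing leaned the other way, with 12 of 29 tested genes higher and 1 lower and a median of 0.15, where 9.87% of all tested genes were higher and 10.6% lower. *SEC24D*, a coat protein of the vesicles that carry procollagen, went from 55.5 to 96.7 CPM (log2 fold change 0.80, SE 0.05, adjusted p = 7.3e-07) and *SEC23A*, its partner in that coat, from 102 to 132 CPM (log2 fold change 0.37). The prolyl 4-hydroxylase subunits *P4HA1* and *P4HA2*, added as examples after their values were seen, had log2 fold changes of 0.31 and 0.32, and the collagen chaperone *SERPINH1*, added likewise, of 0.26. *P3H2*, a prolyl 3-hydroxylase, was the gene of this list that was lower (2.57 CPM in control, 1.57 CPM in IGF2BP3 KD, log2 fold change -0.71).

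Among 20 other matrix proteins tested, 5 were lower and 3 higher, beside 10.6% and 9.87% of all tested genes. *TGFBI* fell from 9.36 to 3.98 CPM (log2 fold change -1.23), *CCN2* (connective tissue growth factor) from 17.97 to 10.1 CPM (log2 fold change -0.84) and *THBS1* (thrombospondin-1) from 54.4 to 32.2 CPM (log2 fold change -0.76). The 3 higher genes were *MATN2*, *FN1* (fibronectin) and *VWA1* (log2 fold changes 1.42, 0.72 and 0.32). *MATN2* had the largest change of this list, at a low level (0.50 CPM in control, 1.34 CPM in IGF2BP3 KD). Among 12 other matrix receptors tested, 1 was lower and 4 were higher. The lower one was *BCAM*, a receptor for the laminin α5 chain (27.9 to 22.4 CPM, log2 fold change -0.32), and the largest rises were those of *GPC1*, a cell-surface heparan sulfate proteoglycan, and *BSG* (log2 fold change 0.28 each).

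Among 11 hemidesmosome and tetraspanin genes tested, 3 were lower and 3 higher. The 3 called genes with the largest changes were the tetraspanins *CD82*, *CD9* and *CD63* (log2 fold changes 0.31, 0.17 and 0.14). Tetraspanins are membrane proteins that associate with integrins. The 3 lower genes were *DST*, *KRT18* and *KRT8* (log2 fold changes -0.14, -0.073 and -0.057). Neither *PLEC* nor *CD151* was called (log2 fold changes -0.046 and 0.084). Among 18 genes of matrix breakdown tested, 2 were lower and 4 higher, and the lower share is near the 10.6% of all tested genes. *TIMP2* and *TIMP1*, inhibitors of metalloproteinases, were higher (log2 fold changes 0.69 and 0.46), and *MMP1*, an interstitial collagenase, was lower (-0.38). The metalloproteinase *MMP14* and *CTSB* were also higher (0.25 and 0.10), and *ADAM17* was also lower (-0.22).

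**Figure D4:**
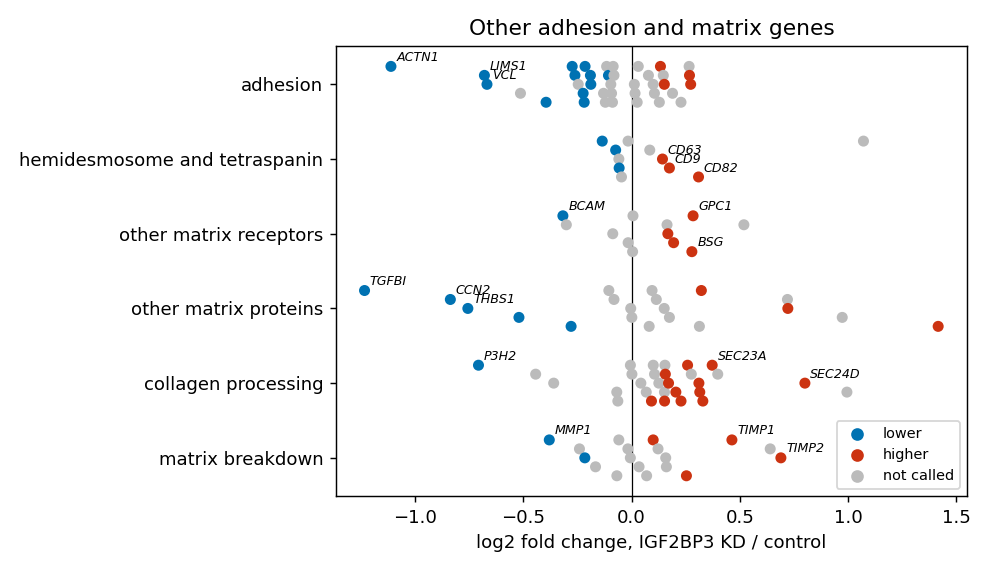
Log2 fold change of IGF2BP3 KD over control (x axis) for the tested genes of 6 lists of adhesion and matrix genes (rows, points spread vertically for legibility only). Blue genes were called lower, red genes higher and grey genes were not called, and the names mark the 3 called genes of each list with the largest change among those averaging 1 CPM or more. Blue points outnumber red in the adhesion list (12 against 4) and red points outnumber blue in collagen processing (12 against 1).

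The words GATTACT and ACACATC had been found from these same libraries to mark 3′ UTRs of genes with shifted levels, so what follows is a description. Both were searched on the sense strand of the 3′ UTR of the Ensembl canonical transcript, where the words cannot overlap each other. GATTACT was held by 7.79% of 13747 tested coding genes, and of these holders 35.1% were lower and 6.72% higher. ACACATC was held by 9.65%, and of these holders 10.7% were lower and 28% higher. Of the tested coding genes with neither word, 13.2% were lower and 12% higher. None of the 14 called integrin, laminin and collagen genes held either word. GATTACT was found in 7 of the 82 members, 4 of them tested, and ACACATC in 6, 2 of them tested, and none of these was called. Among the 128 tested genes of the 6 lists, 7 held GATTACT, of which 5 were lower (*VCL*, *LIMS1*, *CRKL*, *ARHGEF7* and *P3H2*), *TMEM38B* was higher and *NID1* was not called. Of the same 128 genes, 7 held ACACATC, of which 2 were lower, 2 higher and 3 not called. The sites below come from *ITGA1* and *LAMA1*, the tested members with GATTACT and the highest counts, and from the 2 adhesion genes with the word and the largest falls. Each is read from hg38 on the strand of the transcript, with the word in capitals.
ITGA1, chr5:52958076-52958104, plus strand: aggtagagagaGATTACTgggaagcagtg
LAMA1, chr18:6941800-6941828, minus strand: aatgttctgttGATTACTtgatagtattt
LIMS1, chr2:108684619-108684647, plus strand: ttccttcaaatGATTACTtaacgcagtag
VCL, chr10:74119869-74119897, plus strand: tactaaagaaaGATTACTtagaggaaata

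*ITGA1*, which carries this site in a 3′ UTR of 6758 bases, was at 2.57, 2.0 and 2.15 CPM in control and at 3.54, 2.11 and 2.14 CPM in IGF2BP3 KD libraries. *LAMA1*, with a 3′ UTR of 337 bases, was at 2.79, 2.64 and 2.60 CPM in control and at 3.08, 2.59 and 3.48 CPM in IGF2BP3 KD libraries. Both overlapped between the groups. At these low levels the log2 fold changes of *ITGA1* and *LAMA1* (0.21 and 0.19) had SEs of 0.24 and 0.18, against 0.05 and 0.04 for *LIMS1* and *VCL*. *COL14A1*, a fibril-associated collagen that also holds GATTACT, was at 0.715, 0.474 and 0.342 CPM in control and at 0.0741, 0.306 and 0.222 CPM in IGF2BP3 KD libraries. Its groups did not overlap, and it was not called (log2 fold change -1.33, SE 0.57, adjusted p = 0.14). *ITGB3*, the fourth tested member with the word, had a log2 fold change of 0.66 (SE 0.60, adjusted p = 0.53). On the same strand, *ITGA1* shares 499 exon bases with *PELO* and 571 with a pseudogene, and *ITGB3* shares 2266 with a coding gene. *LAMA1* shares 1641 exon bases with an lncRNA on the opposite strand. These low levels are therefore uncertain.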

How the data were processed

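Poly(A) RNA libraries were made with a directional kit and sequenced on an Illumina NovaSeq instrument as paired reads. Per the submitters' processing notes, the authors processed the reads with fastp, HISAT2 (on hg38) and featureCounts, and deposited the resulting raw counts per gene. Tool versions, the annotation release and the strand setting are not given in the sources used here. Of 60612 entries, 132 repeated entries of 44 identifiers were left out.

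The 3 control and 3 IGF2BP3 KD libraries were compared by the quasi-likelihood test of edgeR 4.0.16 (R 4.3.3), after TMM scaling and its filterByExpr filter (minimum count 10, minimum total 15). No block was used, and p-values were adjusted by Benjamini-Hochberg over all 19778 tested genes. The procedure was first run on simulated data. That simulation gave all genes the same dispersion and planted larger changes than the smallest called here, so it does not speak to those. Sums and ratios were compared with exact permutation tests. Positions, exon lengths and 3′ UTRs come from GENCODE v44 on hg38. Alternatives were DESeq2 1.42.0, RLE scaling, other low-count filters, coding genes only, a replicate block and leaving out each library.

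Named members are those called and averaging 1 CPM or more, the 3 per subfamily with the highest level per kilobase, and their partner chains, with further members named to account for each family. From each list, the 3 called genes with the largest change among those averaging 1 CPM or more are named, with some further genes beside them. The values of 1 member are not reported here. Members and lists were chosen with earlier results of these data known.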

Additional observations from a re-analysis of the deposited data

How the results depend on the processing

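Under 12 alternative fits, 10 of the 14 called members were called each time and none was called in the opposite direction. DESeq2 called all 14. The number of members called lower ranged from 3 to 7 when 1 library was left out, against 5 with all libraries, and was 3 without IGF2BP3 KD replicate 2. The number called higher ranged from 7 to 10, against 9. *ITGA3* lost its call with RLE scaling (adjusted p = 0.054) and without a low-count filter (adjusted p = 0.18). Neither *ITGAV* nor *ITGB5* was called in any fit, and their log2 fold changes ranged from -0.42 to 0.016 and from -0.021 to 0.057 when 1 library was left out. The summed integrin alpha and beta levels had log2 ratios of 0.0048 and 0.016 without their most abundant member, and the alpha value was 0.052 when IGF2BP3 KD replicate 1 was left out as well, an alternative chosen after seeing the data.

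Replicate numbers did not pair the libraries, since deviations of same-numbered libraries correlated at -0.0051, -0.045 and -0.028. With the replicate block, 5 members were lower and 9 higher, and 2026 and 1875 genes over the whole table. RLE scaling moved the median log2 fold change of all genes by -0.0041. With 3 libraries per group the exact tests of sums and ratios cannot go below 0.1. Chains at a few CPM or less have an SE of 0.18 to 1.18 on the log2 scale, and changes as small as those of the abundant laminins could not be seen there.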
